A study of Homo sapiens with 6 samples.

Results

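The genes described here are 9 members of the PARP family and *DTX3L*, the partner of *PARP9*, in SW480 cells. They were taken from the expression table by symbol, and all 10 were found among its 19225 symbols and passed the filter on low values. They fall into 6 genes known to respond to interferon (*PARP9*, *DTX3L*, *PARP10*, *PARP12*, *PARP14* and *ZC3HAV1*), 3 genes whose expression is held to be constitutive (*PARP1*, *PARP2* and *PARP4*), and *TIPARP*, which is best known as a target of the aryl hydrocarbon receptor. SW480 cells were derived from a colon cancer and carry mutant p53. RNA was sequenced from 3 control libraries and from 3 libraries of cells transiently transfected with plasmids encoding MDM4, a p53-binding regulator. The labels number the libraries from replicate 1 to replicate 3 in both groups and say nothing of separate cultures, so the p-values below measure the spread between these libraries. The labels name the second group "exercised", and as there is no further group beside the controls, it was taken as the transfected one. Which plasmid the control cells of the sequencing received, and how many hours passed before RNA was taken, is not given in the sources used here. All 6 libraries share the mutant p53 of the line, and transient transfection leaves a mixture of cells with more and less plasmid.

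PARP enzymes transfer ADP-ribose from NAD+ to proteins and nucleic acids, either as single units or as long chains. PARP1 and PARP2 sense DNA breaks and build the chains that recruit repair factors. Several of the enzymes that add single units are made in greater amount when interferon activates the transcription factors that bind the interferon-stimulated response element, and they take part in antiviral defence. ADP-ribose is removed again by hydrolases such as PARG and the macrodomain proteins.

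In FPKM, which scale the fragments of a gene to its length and to the depth of the library, *MDM4* measured 6.35, 7.09 and 5.13 in the controls, by replicate number, and 188, 185 and 56.3 after transfection. The transfected gene was thus raised in all 3 replicate numbers, and least so in replicate 3. In both groups replicate 3 stood apart from the others. Between 32943435 and 44580695 reads per library lay on the listed genes. All 7 colon epithelial markers passed the filter, and their summed FPKM ranged from 4544 to 4901 in the control and from 4221 to 4519 in the MDM4 libraries. Of 5 macrophage or monocyte markers 2 passed, *CD68* at 4.26 to 5.01 FPKM and *CD14* at 0.308 to 0.813 FPKM over all libraries. Summed over all 5, these markers had 5.24 to 6.20 FPKM in the control and 5.40 to 5.66 FPKM in the MDM4 libraries. The defining *PTPRC* was at 0 in 3 libraries and at most at 0.0142 FPKM in the others. Of 5 fibroblast markers 1 passed, *COL1A1* at 1.60 to 3.80 FPKM over all libraries. Summed over all 5, these markers had 1.75 to 3.89 FPKM in the control and 1.96 to 3.91 FPKM in the MDM4 libraries. *COL1A2* and *DCN* were at or below 0.01 FPKM. In a bulk sample, fewer cells with a transcript and less of it per cell cannot be told apart.

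In control cells *PARP1* stood at 99.2 ± 4.57 FPKM (SD, n = 3), above every other gene of the group. *PARP4*, which encodes the PARP of the vault particle, followed at 39.4 ± 2.67 FPKM. *TIPARP* had 32.5 ± 2.24 FPKM and *PARP2* had 22.9 ± 0.227 FPKM. The interferon-responsive genes lay lower, from *ZC3HAV1* at 15.9 ± 1.98 FPKM to *PARP10* at 5.18 ± 0.342 FPKM. Between them, *PARP12* had 12.4 ± 2.0, *PARP14* 11.9 ± 2.71, *PARP9* 11.3 ± 3.92 and *DTX3L* 11.2 ± 4.15 FPKM. Neighbours in this order had libraries that did not overlap, except for these 4 genes, which overlapped with the next of them in the order. In the MDM4 libraries the upper 5 places were the same, from *PARP1* at 98.6 ± 3.99 FPKM down to *ZC3HAV1* at 15.5 ± 0.948 FPKM. *PARP12* (9.89 ± 0.758 FPKM), *PARP14* (8.87 ± 1.46 FPKM) and *DTX3L* (7.88 ± 0.749 FPKM) came next, and *PARP9* (5.61 ± 0.556 FPKM) and *PARP10* (3.69 ± 1.02 FPKM) were the lowest. There *PARP12*, *PARP14* and *DTX3L* overlapped in turn, and the libraries of *PARP9* and *PARP10* lay apart from their neighbours. FPKM is scaled to gene length, so these levels can be set side by side, as far as the single length behind each gene (3809 bases for *PARP9*, 3985 for *PARP1*) fits the transcripts made.

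**Figure D1:**
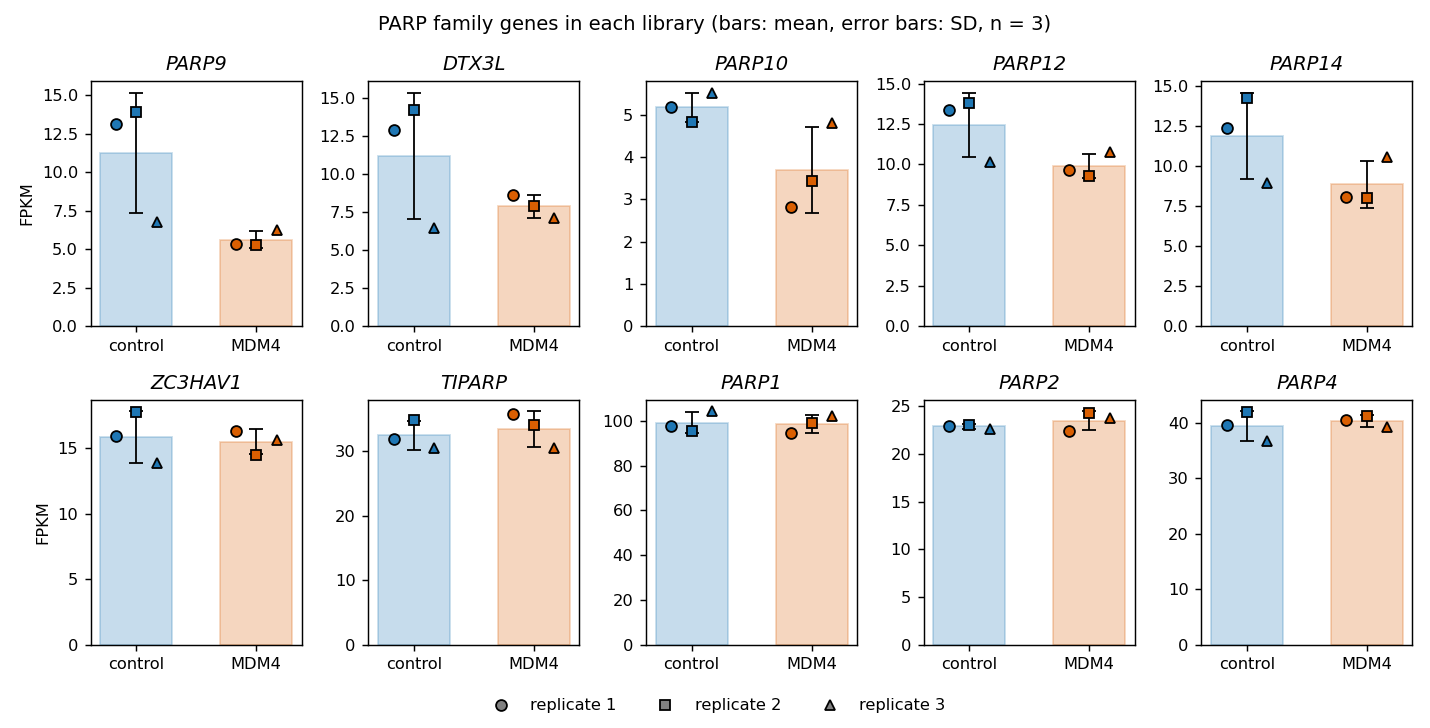
FPKM of the 10 genes (vertical axis, from 0, a scale of its own in each panel) in the control and MDM4 libraries, with bars for the mean, error bars for the SD (n = 3) and a symbol for each replicate number. In *PARP9* and *PARP10* the 3 MDM4 libraries lie below the 3 control libraries, and control replicate 3 is the lowest control library in 8 of the 10 genes, all but *PARP10* and *PARP1*.

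The promoters are shown because interferon-responsive genes are known for a short element to which factors activated by interferon bind. RefSeq (GRCh38.p14) promoters, from 250 bases before an annotated start site to 50 bases from it on, were used for 8 of the 10 genes, in 11 entries. The core of the interferon-stimulated response element, searched as GAAANNGAAA on both strands, was present in 4 of these genes, *PARP9*, *DTX3L*, *PARP14* and *PARP12*. It was present in 3.57% of all 35116 promoters of the table, or for 4.38% of its 27305 symbols. *ZC3HAV1*, *TIPARP*, *PARP1* and *PARP2* had no match to these letters in the window. The 80 bases from 60 before the start site to the 20 from it on are given below in lower case on the strand of the gene, with the match in capitals, for *DTX3L*, whose match is also that of *PARP9*, for *PARP14* and *PARP12*, and for *ZC3HAV1*, which has none. They lie at chr3:122564278-122564357 (plus strand, *DTX3L*), chr3:122680779-122680858 (plus strand, *PARP14*), chr7:140062932-140063011 (minus strand, *PARP12*) and chr7:139109701-139109780 (minus strand, *ZC3HAV1*).
DTX3L: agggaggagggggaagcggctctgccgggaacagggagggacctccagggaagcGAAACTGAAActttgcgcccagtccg
PARP14: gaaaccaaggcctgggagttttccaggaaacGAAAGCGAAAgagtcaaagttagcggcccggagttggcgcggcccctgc
PARP12: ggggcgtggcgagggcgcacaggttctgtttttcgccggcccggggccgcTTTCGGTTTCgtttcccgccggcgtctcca
ZC3HAV1: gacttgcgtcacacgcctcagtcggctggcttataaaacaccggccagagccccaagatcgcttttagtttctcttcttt

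*DTX3L* and *PARP9* are transcribed away from each other, and their match is the same 10 bases, at chr3:122564332-122564341. Its first base lies 6 bases before the *DTX3L* start site and, read on the other strand, 41 bases before the nearer of the start sites of *PARP9*. The other *PARP9* entry held no match. In *PARP14* the match began 29 bases before the start site and in *PARP12* 10 bases before it. The gamma-activated sequence, known from genes that respond to interferon gamma, was searched as TTCNNNGAA, its own reverse complement. It was present in 7.66% of all promoters, and in those of *PARP14*, *ZC3HAV1* and *PARP2*. Of these 3 genes only *PARP14* also held the core of the interferon-stimulated response element, and there the matches did not overlap. The core of the aryl hydrocarbon receptor element, GCGTG on either strand, was found in 36.5% of all promoters. It had 2 matches in the promoter of the first *TIPARP* start site and 0 in the other *TIPARP* entries. It was not particular to *TIPARP*, as *ZC3HAV1* also had 2 matches and *PARP1*, *PARP2* and *PARP12* had 1 each. A match describes letters and is not evidence of binding.

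**Figure D2:**
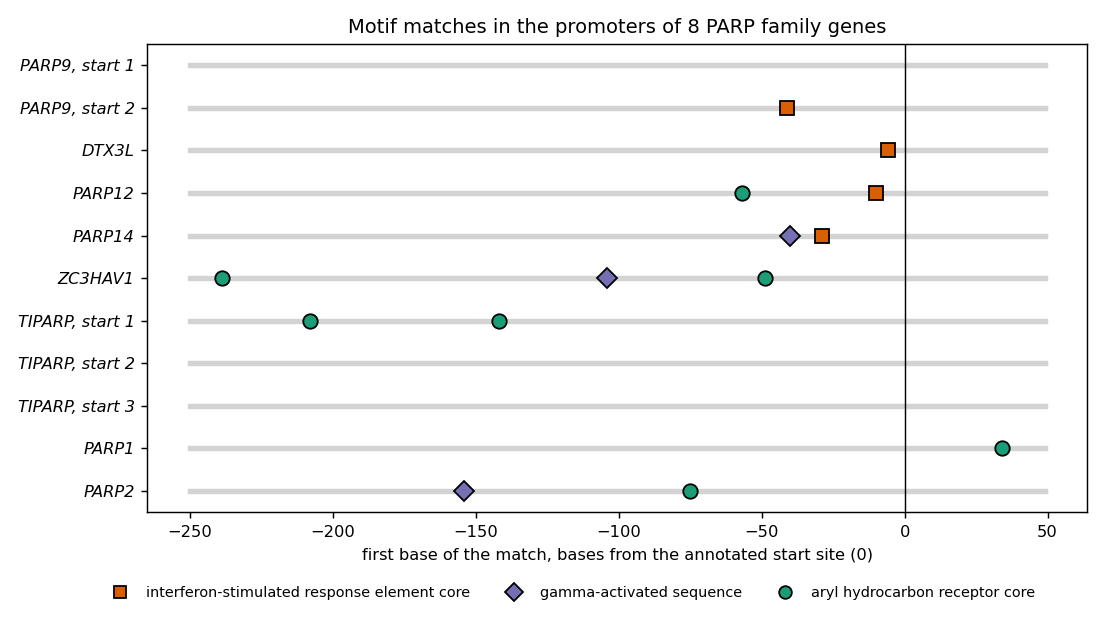
Matches to 3 motifs in 11 promoter entries of 8 genes, by the distance of the first base of the match from the annotated start site in bases (horizontal axis, 0 is the start site). The matches to the interferon-stimulated response element lie within 41 bases before the start site in *PARP9*, *DTX3L*, *PARP12* and *PARP14*.

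The comparison of MDM4 with control libraries asks whether these genes move with the transfected gene. From replicate 1 to replicate 3, *PARP9* measured 13.1, 13.9 and 6.75 FPKM in the control libraries and 5.30, 5.28 and 6.25 FPKM in the MDM4 libraries, from 698 to 2234 reads. The groups did not overlap, but control replicate 3 came close to the MDM4 libraries. Over all 6 libraries *PARP9* was lower by -0.93 ± 0.26 (SE) on the log2(FPKM + 0.1) scale (95% interval -1.54 to -0.31), with an adjusted p of 1.0 over the 12884 genes tested with limma. The PARP9 protein binds ADP-ribose through its macrodomains and acts in a complex with the ubiquitin ligase DTX3L.

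*DTX3L* was at 12.9, 14.2 and 6.47 FPKM in the control libraries and at 8.63, 7.88 and 7.13 FPKM in the MDM4 libraries. Control replicate 3 was the lowest of all 6, so the groups overlapped. The difference was -0.43 ± 0.28 (95% interval -1.08 to 0.22). *PARP14*, which encodes a large enzyme with macrodomains that adds single ADP-ribose units, was at 12.4, 14.3 and 8.95 FPKM in the control and at 8.05, 8.01 and 10.5 FPKM in the MDM4 libraries. Control replicate 3 fell among the MDM4 libraries, and MDM4 replicate 3 was the highest of its group. The difference was -0.40 ± 0.19 (95% interval -0.85 to 0.05).

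*PARP12* encodes an enzyme with zinc fingers that adds single ADP-ribose units. It was at 13.4, 13.8 and 10.1 FPKM in the control and at 9.64, 9.30 and 10.7 FPKM in the MDM4 libraries, with an overlap through replicate 3 alone. The difference was -0.32 ± 0.14 (95% interval -0.64 to 0.01). *PARP10*, another enzyme that adds single units, was at 5.20, 4.84 and 5.52 FPKM in the control libraries and at 2.83, 3.42 and 4.81 FPKM in the MDM4 libraries. The groups did not overlap, and unlike in the genes above, the control libraries lay close together while MDM4 replicate 3 lay nearest to them. The difference was -0.51 ± 0.20 (95% interval -0.98 to -0.05). Beside *PARP9*, *PARP10* was the other of these genes whose groups did not overlap, against 3.76% of the tested genes with all MDM4 libraries below all control libraries. For both, the exact two-sided permutation test gave 0.1, the smallest p that 3 against 3 libraries allow.

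*ZC3HAV1*, which encodes the zinc finger antiviral protein that binds CpG-rich RNA and has no ADP-ribosylating activity, was at 15.9, 17.8 and 13.9 FPKM in the control and at 16.4, 14.5 and 15.7 FPKM in the MDM4 libraries. The libraries of both groups were interleaved. The difference was -0.03 ± 0.12 (95% interval -0.30 to 0.24), which leaves no room for a fall of the size fitted for *PARP9*. *ZC3HAV1* was also the member with the highest level among the interferon-responsive genes.

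The constitutive genes showed little spread. *PARP1* was at 97.7, 95.6 and 104 FPKM in the control and at 94.4, 99.1 and 102 FPKM in the MDM4 libraries, a difference of -0.01 ± 0.06 (95% interval -0.16 to 0.14). *PARP2* was at 22.9, 23.1 and 22.6 FPKM in the control and at 22.4, 24.3 and 23.8 FPKM in the MDM4 libraries, a difference of 0.04 ± 0.08 (95% interval -0.14 to 0.21). *PARP4* was at 39.7, 42.0 and 36.7 FPKM in the control and at 40.5, 41.3 and 39.3 FPKM in the MDM4 libraries, a difference of 0.04 ± 0.08 (95% interval -0.14 to 0.21). In all 3 the groups overlapped, and the highest library was 1.1 times the lowest, against 2.63 times in *PARP9* and 2.20 times in *DTX3L*.

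*TIPARP*, which adds single ADP-ribose units and dampens both aryl hydrocarbon receptor and interferon signalling, did not separate the groups either. It was at 32.0, 34.9 and 30.5 FPKM in the control and at 35.8, 34.2 and 30.5 FPKM in the MDM4 libraries. The groups overlapped, with a difference of 0.04 ± 0.09 (95% interval -0.17 to 0.26). Of the 6 genes of the aryl hydrocarbon receptor list, 0 passed the test with limma and 0 had an unadjusted p under 0.05, with a median difference of 0.05, and the target gene *CYP1A1* was at 8.14, 8.04 and 4.10 FPKM in the control and at 6.83, 7.17 and 4.27 FPKM in the MDM4 libraries.

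With all 6 libraries limma called 0 of the 10 genes at an adjusted p under 0.05, against 0.0% of the 12884 genes tested, since no gene was called. The transfected *MDM4* itself, at 4.33 on the log2 scale, was not called in this fit (adjusted p = 0.161 in limma). The lack of a call therefore does not show that a gene is unchanged. At an unadjusted p under 0.05, *PARP9* and *PARP10* were lower in limma and 0 of the 10 were higher, against 1.27% of all tested genes that were lower, and voom on the reads behind the FPKM values also called 0 of the 10. The median difference was -0.42 over the 6 interferon-responsive genes, 0.04 over the 3 constitutive genes and -0.01 over all tested genes. The 6 values were below 0, that of *ZC3HAV1* by less than its SE, and the median was -0.25 without control replicate 2, with 5 of the 6 below 0. With the replicate number as a block, limma again called 0 of the 10, against 0.0155% of all genes, while 5 of the 10 (*PARP9*, *DTX3L*, *PARP10*, *PARP12* and *PARP14*) were lower at an unadjusted p under 0.05, against 7.32% of all genes. The smallest adjusted p among these genes was then 0.219 in limma, that of *PARP9*.

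**Figure D3:**
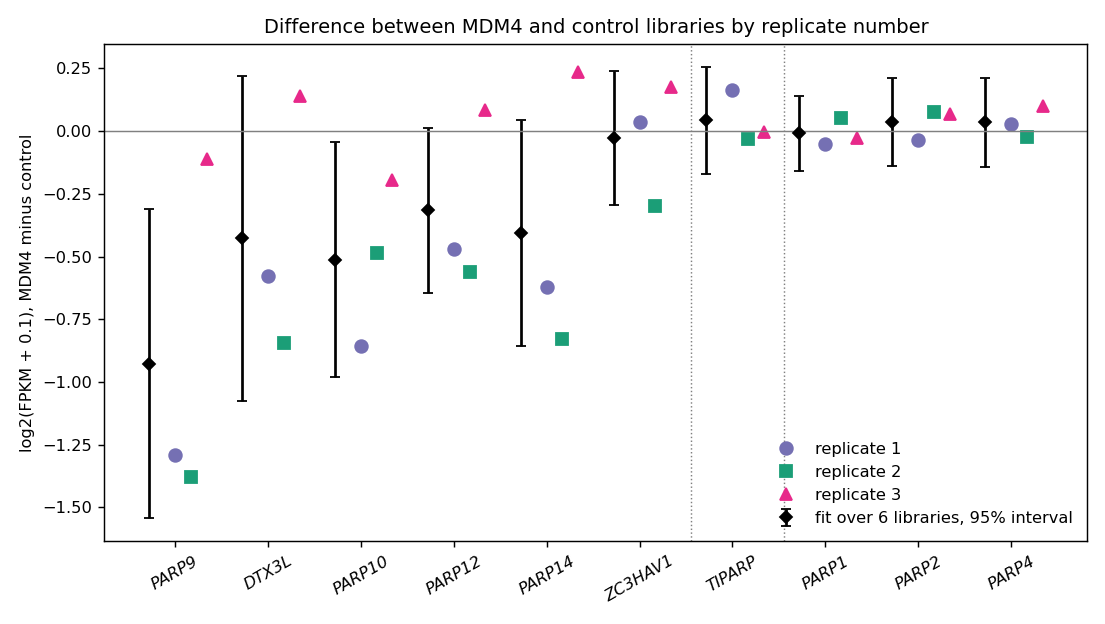
Difference between MDM4 and control on the log2(FPKM + 0.1) scale (vertical axis) for each gene, within each replicate number (coloured symbols) and in the fit over all 6 libraries with its 95% interval (black). Replicates 1 and 2 lie well below 0 in *PARP9*, *DTX3L*, *PARP10*, *PARP12* and *PARP14*, replicate 3 lies nearer to 0 or above it, and *TIPARP*, *PARP1*, *PARP2* and *PARP4* stay near 0 in each replicate.

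Because replicate 3 stood apart, the groups were also compared within replicate numbers. The ratio of MDM4 to control FPKM of *PARP9* was 0.404, 0.380 and 0.926 for replicate numbers 1 to 3. *DTX3L* had ratios of 0.668, 0.554 and 1.10, *PARP14* of 0.648, 0.560 and 1.18, and *PARP12* of 0.720, 0.675 and 1.06. These 3 genes were lower in the MDM4 library of replicates 1 and 2 and higher in that of replicate 3. Within replicate 3 the median difference of the 6 interferon-responsive genes was 0.11 on the log2 scale, with 2 of the 6 below 0. The ratios of *PARP10* were 0.544, 0.708 and 0.872, below 1 in each replicate number, as were those of *PARP9*. Summed over the 6 interferon-responsive genes, expression was 45.5%, 49.1% and 31.6% of the summed expression of the constitutive genes in control replicates 1 to 3 and 32.3%, 29.4% and 33.4% in the MDM4 libraries. Control replicate 3 therefore lay within the range of the MDM4 libraries.

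The comparison over replicates 1 and 2 alone (2 libraries per group) was chosen with earlier results of these data known. It leaves out the replicate in which most of these genes showed no fall, so its p-values are no independent support for one. There limma called *PARP9*, *DTX3L*, *PARP14* and *PARP12* lower and 0 of the 10 higher, against 0.512% of the 12884 genes called lower. *PARP9* fell by 1.34 ± 0.10 on the log2 scale (95% interval -1.56 to -1.11, adjusted p = 3.66e-05 in limma). *PARP14* fell by 0.72 ± 0.11 (adjusted p = 0.00698 in limma) and *DTX3L* fell by 0.71 ± 0.10 (adjusted p = 0.00707 in limma). *PARP12* fell by 0.52 ± 0.10 (adjusted p = 0.0405 in limma). These 4 are also the genes with the interferon-stimulated response element in the promoters used. *PARP10*, for which no promoter was used, had a difference of -0.67 ± 0.14 that did not pass the test (adjusted p = 0.0832 in limma). *ZC3HAV1* stood at -0.13 ± 0.10 (95% interval -0.35 to 0.09), *TIPARP* at 0.07 ± 0.08 (95% interval -0.11 to 0.25) and *PARP1*, *PARP2* and *PARP4* between 0.00 and 0.02. With control replicate 3 alone left out, 1 of the 10, *PARP9*, was called lower (-1.26 on the log2 scale, adjusted p = 0.0172 in limma), against 0.147% of all genes. This call therefore depends on control replicate 3.

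The difference between replicate 3 and the other replicate numbers was tested with an interaction term in limma. In it the lone replicate 3 library of each group is assumed to vary like the other libraries. The term was set up because replicate 3 had been seen to stand apart in these data, so its p-values are not independent of that choice. Of the 10 genes *PARP9* was called (1.23 ± 0.18 on the log2 scale, 95% interval 0.82 to 1.63, adjusted p = 0.0225 in limma), its difference being less negative in replicate 3, against 0.186% of all genes called in that direction. *PARP14* had a term of 0.96 ± 0.19 (adjusted p = 0.118 in limma) and *DTX3L* of 0.85 ± 0.19 (adjusted p = 0.244 in limma), and neither passed the test in this fit. P-values of the term with the replicate numbers blocked are not given. That fit leaves few libraries to estimate the spread of each gene, and replicates 1 and 2 were not told apart. *PARP12* stood at 0.60 ± 0.17, *PARP10* at 0.48 ± 0.24 and *ZC3HAV1* at 0.31 ± 0.18. *TIPARP*, *PARP1*, *PARP2* and *PARP4* lay between -0.07 and 0.10. *MDM4* itself had a term of -1.35 (adjusted p = 0.00166 in limma), as it was raised less in replicate 3, and its part in the term of *PARP9* was not tested.

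Replicate 3 was also set against replicates 1 and 2 within each group. In control cells *PARP9* was at -0.99 in replicate 3 relative to the mean of replicates 1 and 2 on the log2 scale, *DTX3L* at -1.06, *PARP14* at -0.57, *PARP12* at -0.42 and *ZC3HAV1* at -0.28, while the median over all tested genes was 0.09. In MDM4 cells *PARP9* was at 0.24, *PARP14* at 0.39 and *PARP12* at 0.18, beside a median of 0.10, while *ZC3HAV1* was at 0.03 and *DTX3L* at -0.21. In *PARP9*, *DTX3L*, *PARP12* and *ZC3HAV1* the control value was thus the farther from the median of all genes, and in *PARP14* both were away from it, in opposite directions. *PARP10* was at 0.14 in the control and at 0.61 in the MDM4 libraries, so there the MDM4 value was the farther.

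**Figure D4:**
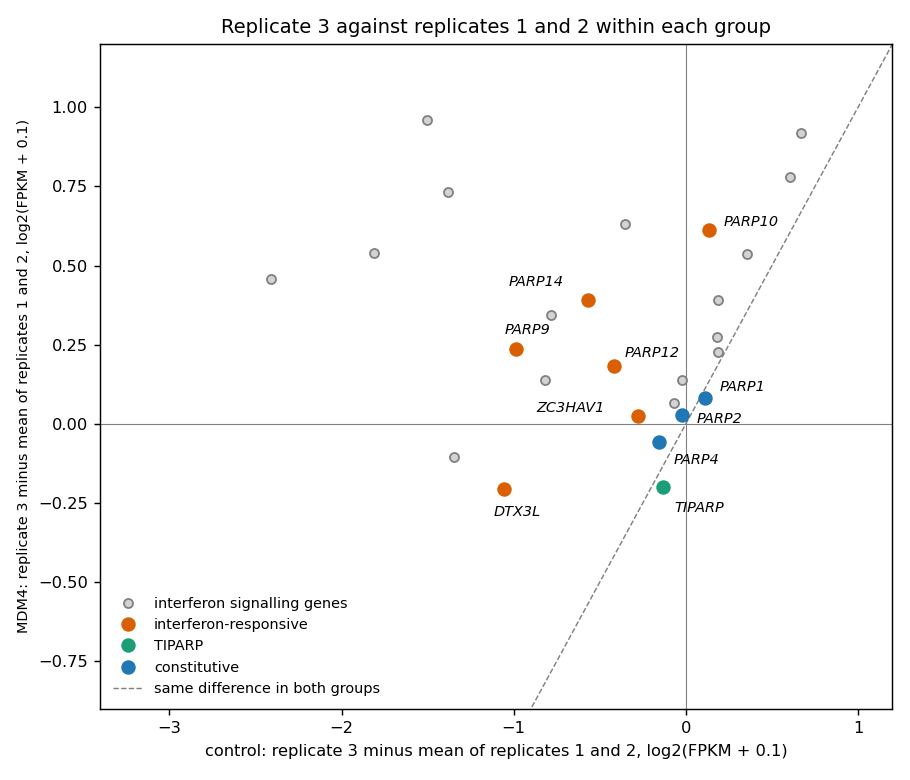
Replicate 3 minus the mean of replicates 1 and 2 on the log2(FPKM + 0.1) scale, in control cells (horizontal axis) and in MDM4 cells (vertical axis), for the 10 genes and for 16 of the 18 tested interferon signalling genes, with the other 2 outside the axes. *PARP9*, *DTX3L*, *PARP14* and *PARP12* lie to the left of 0, *PARP10* lies above 0, and *TIPARP*, *PARP1*, *PARP2* and *PARP4* lie near the dashed line of equal differences.

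The genes of interferon signalling give the setting. Of the 20 listed, 18 were tested, and 16 of these had a value below 0, with a median of -0.61. With all 6 libraries 0 were called by limma, 9 were lower at an unadjusted p under 0.05, against 1.27% of all tested genes, and voom called 0. A filter of mean 1 FPKM leaves out *IFNL2* and *IFNL3*, which had reads chiefly in control replicates 1 and 2. Of the 16 genes then tested, 14 were below 0, with a median of -0.39. At an unadjusted p under 0.05 in limma 8 were then lower, against 150 of all 12028 genes. Over replicates 1 and 2 alone limma called 10, all lower, against 0.512% of all tested genes. These 10 include *IFNL2* and *IFNL3*, which passed the filter on low values through the libraries where they are high and so had to differ. Among the other 8 were *IRF9* (-2.08 ± 0.13) and the interferon-stimulated genes *MX1* (-2.97 ± 0.10), *OAS1* (-2.28 ± 0.12), *IFIT1* (-2.44 ± 0.18) and *ISG15* (-1.35 ± 0.06). Also called were the sensor *DDX58* (-0.92 ± 0.13) and the factor *IRF7* (-1.19 ± 0.12). Within replicate 3 the median of the 18 genes was 0.03, with 5 of them below 0. *STAT2* (-0.18 ± 0.11) was not called. *MX1* had 30.6, 30.4 and 5.65 FPKM in the control and 3.86, 3.75 and 5.26 FPKM in the MDM4 libraries. Control replicate 3 thus came close to the MDM4 libraries in *MX1* as in *PARP9*.

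The type III interferons themselves had reads chiefly in control replicates 1 and 2. *IFNL2* had 43 and 55 reads there, 0 in control replicate 3 and 0, 0 and 1 in the MDM4 libraries. *IFNL3* had 57 and 51 reads there, 0 in control replicate 3 and 2, 0 and 4 in the MDM4 libraries. *IFNB1* had at most 6 reads in any library and, like *IFNL1*, did not pass the filter on low values. These counts move with the levels of *PARP9*, *DTX3L*, *PARP14* and *PARP12*, and their part in those levels was not tested.

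Genes with a pattern like that of *PARP9* over the 6 libraries were *MX1* (Pearson's r = 0.997), *OAS1* (0.997), *IFIT3* (0.995), *FGFBP3* (0.995) and *PLSCR1* (0.994). Among the other 9 genes of the group, the one nearest to *PARP9* was *PARP12* (0.98), followed by *PARP14* (0.94) and *DTX3L* (0.87), with *PARP10* at 0.61 and *ZC3HAV1* at 0.58. At 0.87 *DTX3L* held place 141 among all tested genes, so that a high r was common. For *PARP14* the 5 most alike were *SAMD9* (0.993), *SGPP2* (0.986), *PARP12* (0.977), *RBM6* (0.972) and *GCNA* (0.971). Those of *TIPARP* included *ZNF776*, *ERLIN1*, *FAM210A* and *METTL8* (0.991 to 0.998), and the r of *TIPARP* with *PARP9* was 0.00. These values describe the same 6 libraries, of which control replicates 1 and 2 hold the high values of *PARP9*.

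*PARP9*, *DTX3L* and *PARP14* are neighbours on chromosome 3. In GENCODE release 29 (GRCh38) *PARP9* lies on the minus strand at chr3:122527924-122564577, *DTX3L* on the plus strand at chr3:122564238-122575203 and *PARP14* on the plus strand at chr3:122680618-122730840, together 202917 bases. *PARP15*, which lies between *DTX3L* and *PARP14*, had at most 5 reads in a library and was not tested. The nearest tested genes on either side were not called over replicates 1 and 2, with *KPNA1* at -0.01 and *HSPBAP1* at -0.16 on the log2 scale (adjusted p = 0.979 and 0.810 in limma). The genes beyond them, *WDR5B* (0.32) and *DIRC2* (-0.11), were not called either. *PARP12* and *ZC3HAV1*, which differed in their values, lie on the minus strand of chromosome 7, at chr7:140023744-140063721 and chr7:139043520-139109719. *TIPARP* lies elsewhere on chromosome 3, at chr3:156673235-156706770. *PARP1* lies at chr1:226360691-226408079 (minus strand), *PARP2* at chr14:20343582-20357905 (plus strand) and *PARP4* at chr13:24420926-24512810 (minus strand).

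**Figure D5:**
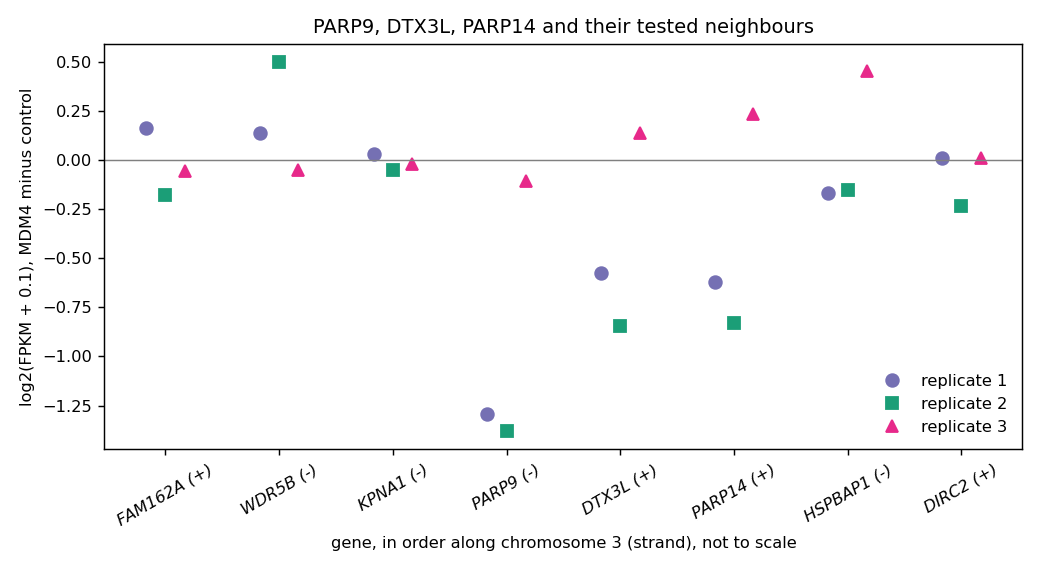
Difference between MDM4 and control on the log2(FPKM + 0.1) scale (vertical axis) within each replicate number for *PARP9*, *DTX3L*, *PARP14* and 5 tested neighbours, in their order along chromosome 3 and not to scale. The low values of replicates 1 and 2 are seen in *PARP9*, *DTX3L* and *PARP14*, while *KPNA1* before them lies near 0. *HSPBAP1* after them lies a little below 0 in replicates 1 and 2 and above 0 in replicate 3.

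Although *PARP9* and *DTX3L* start next to each other on opposite strands, their levels did not keep a fixed ratio. FPKM of *PARP9* over *DTX3L* was 1.02, 0.977 and 1.04 in the control and 0.614, 0.670 and 0.877 in the MDM4 libraries. The 3 ratios of the MDM4 libraries lay below the 3 control ratios, replicate 3 included, and the exact two-sided permutation p was again the smallest possible, 0.1. The pair was chosen after the values were seen. In control replicate 3 both genes were low and the ratio was that of the other control libraries, whereas in the MDM4 libraries *PARP9* was low relative to *DTX3L*. Exons of both genes share 217 bases on opposite strands, and since the counting is not stated to use strand, reads there cannot be assigned to either gene. *PARP10* shares 324 exonic bases with *GRINA* and 197 with *SPATC1*, and *PARP2* shares 104 with an antisense transcript, with the same limit.

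The rest of the ADP-ribosylation machinery was taken as a list of 21 further genes, of which 19 were tested. It holds the other PARP family genes, the tankyrases, the hydrolases and macrodomain proteins that remove ADP-ribose, and partners of PARP1 and of the vault. With all 6 libraries, 0 of the 19 were called by limma, 0 had an unadjusted p under 0.05 and voom called 0. Over replicates 1 and 2 alone 0 were called as well, the smallest adjusted p being 0.652 in limma. The median difference was -0.04 with all libraries and -0.02 over replicates 1 and 2 alone, with 10 and 11 of the 19 below 0. With the replicate number blocked, limma again called 0, and 2 of the 19 were higher and 0 lower at an unadjusted p under 0.05. Over all 12884 tested genes 1624 had such a p in that fit, and 943 of them were lower. *PARG*, the main enzyme that degrades the chains, was at 6.27, 6.34 and 7.23 FPKM in the control and at 6.87, 7.80 and 8.12 FPKM in the MDM4 libraries. *HPF1*, which directs PARP1 to serine residues, was at 17.5, 15.2 and 18.1 FPKM in the control and at 14.8, 13.6 and 17.7 FPKM in the MDM4 libraries. In both genes the groups overlapped. By replicate number *PARG* was higher in MDM4 in 3 of 3 pairs (0.13, 0.30 and 0.17 on the log2 scale) and *HPF1* lower in 3 of 3 (-0.24, -0.16 and -0.03). With the block the adjusted p of *PARG* and *HPF1* was 0.375 and 0.415 in limma. The same sign in 3 of 3 pairs was also seen in *TNKS* and *TNKS2* (higher) and in *PARP6* and *PARP8* (lower). How often this occurs over all genes was not counted. *PARP6* was also the 1 gene of the 19 with all MDM4 libraries below all control libraries, against 3.76% of all tested genes.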

How the data were processed

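The authors deposited FPKM values of 19225 symbols in 6 libraries. Per the study's methods, poly(A) RNA was captured on oligo(dT) beads for Illumina HiSeq2000 libraries, while the aligner, annotation and strand setting are not given in the sources used here. From the steps of the values, whole reads and lengths (to within 0.02 bases) were recovered for 17185 of 17189 genes above 0 (99.98%), with 32943435 to 44580695 reads per library. These served for depth, reads per gene and voom. For each gene the smallest whole numbers that fitted were taken, so its reads and length may be a fraction of the true ones.

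With limma 3.58.1, log2(FPKM + 0.1) was fitted (eBayes with trend, R 4.3.3) for 12884 genes of mean 0.5 FPKM or more, with Benjamini-Hochberg adjustment over all of them, and was tested on simulated data. Deviations of same-numbered libraries from their group means correlated at 0.46, 0.45 and 0.78 across genes, so the numbers were taken to pair the libraries and blocked values are given, although replicates 1 and 2 were not told apart (0.44 and 0.46). Interaction with replicate 3, other pseudocounts, filters and scalings, voom and each library left out were also run. Python 3.11.15, numpy 2.4.6, pandas 2.3.3, scipy 1.17.1 and matplotlib 3.10.9 were used.

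The genes and lists, the comparison over replicates 1 and 2 and the replicate 3 term were chosen with earlier results of these data known. Named genes are the 10 genes, *MDM4*, listed genes called in a fit or serving as reference targets or ligands, and the 5 most alike of *PARP9*, *PARP14* and *TIPARP*. *PARG*, *HPF1* and the neighbours were added for their function or place, and *TNKS*, *TNKS2*, *PARP6* and *PARP8* for the same sign in every pair. Promoters of *PARP10* and *PARP4* were not analysed here. Some genes that this rule names are not reported here.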

Additional observations from a re-analysis of the deposited data

Results flagged for a closer look

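*PARP9* differed between replicate numbers. MDM4 minus control was -1.29 in replicate 1 and -1.38 in replicate 2 on the log2(FPKM + 0.1) scale, but -0.11 in replicate 3, and the interaction term was 1.23 (adjusted p = 0.0225 in limma). The term rests on 1 replicate 3 library per group and was chosen with earlier results of these data known.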

How the results depend on the processing

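Across 17 alternatives, *PARP9*, *DTX3L*, *PARP10*, *PARP12* and *PARP14* stayed below 0 and *PARP2* above 0. The number of the 10 genes called with all libraries was 0, and it became 4 over replicates 1 and 2 alone and 0 to 1 when a library was left out (1 without control replicate 3). Among all tested genes 0 were called, against 2 with the replicate block, 9 with voom and the replicate block, 69 over replicates 1 and 2 alone and 0 to 21 when a library was left out (21 without control replicate 3, 1 without MDM4 replicate 3). Among the listed genes other than the 10 and *MDM4*, 0 were called, against 1 with voom and the replicate block, 10 over replicates 1 and 2 alone and 0 to 7 when a library was left out. The replicate block changed no call of the 10 genes between MDM4 and control. For the replicate 3 term, more of the 10 genes were called with the replicate block, with voom and without control replicate 1 or 2. In each of these fits more of all tested genes were called as well. The counts are not given, as the term rests on 1 replicate 3 library per group. Without the replicate 3 libraries this term could not be fitted. The calls of *PARP9* (-1.34), *DTX3L* (-0.71), *PARP12* (-0.52) and *PARP14* (-0.72) appeared over replicates 1 and 2 alone, and *PARP9* ranged from -1.26 to -0.74 when a library was left out. *DTX3L* moved from -0.43 to -0.22 without control replicate 2, -0.29 without control replicate 1 and -0.78 without control replicate 3, and *PARP14* from -0.40 to -0.26 without control replicate 2. Values near 0 changed sign. *PARP1* became 0.0015 with median ratio scaling, 0.028 with quantile normalization, 0.0012 with voom, 0.00089 with voom and the replicate block, and 0.0013 over replicates 1 and 2 alone. When a library was left out, *PARP1* ranged from -0.036 to 0.028, *ZC3HAV1* from -0.12 to 0.059, *TIPARP* from -0.0074 to 0.11 and *PARP4* from -0.016 to 0.081. The causes were not tested. FPKM carry no counting interval, and 3 libraries per group limit the precision.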
